A study of Homo sapiens with 28 samples.

Results

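MDST8 TWIST1 knockout clone 2.2 was compared with the parental line by RNA-seq, with 3 libraries of the clone (labelled TG2) against 3 libraries of wildtype (WT) cells, which is 6 of the 28 samples of the series. MDST8 is a human colorectal cancer line of the mesenchymal CMS4 subtype, grown here in DMEM with serum, and libraries were made from its polyadenylated RNA. Clone 2.2 is 1 colony grown from a single cell after CRISPR-Cas9 editing of TWIST1, and WT is the unedited parental population, so the effects of TWIST1 loss, of cloning and of editing cannot be told apart in this comparison. The labels do not say that the 3 libraries of a group came from separate cultures, so p-values measure the spread between libraries, which may be technical. The 12 libraries of the other 4 knockout clones of the line (1.1, 3.2, 3.5 and 3.6) helped to estimate that spread and served as a further comparison.

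The 6 libraries held between 18502364 and 20517514 counted read pairs, and mitochondrially encoded genes took 2.4 to 3.05% of them in WT and 3.21 to 3.35% in clone 2.2. Pearson's r of log2 expression across genes was 0.9956 to 0.9965 between libraries of a group and 0.9758 to 0.9778 between groups. The colon epithelial markers CDH1 (E-cadherin) and CDX2 had 0 counts in all 6 libraries, which allows up to 3 counts in each, and EPCAM had at most 1, whereas VIM (vimentin) stood at 3500 ± 102 CPM in WT and 4260 ± 91.3 CPM in clone 2.2 (CPM, read counts scaled to a common TMM-normalised library size, mean ± SD, n = 3). Among 10 immune cell markers 4 were at 0 in all 6 libraries and none reached the expression filter, with a summed level of 0.357 to 0.969 CPM in WT and 0.829 to 0.981 CPM in clone 2.2. The 8 endothelial markers summed to 0.612 to 1.38 CPM in WT and 0.414 to 1.01 CPM in clone 2.2, with none tested, and the 7 mesothelial markers to 11.2 to 14.3 CPM and 8.25 to 11.1 CPM, with 2 tested and neither called. The mesothelial marker WT1 had 62, 57 and 55 reads in WT and 0, 2 and 2 in clone 2.2, and was too low over the 18 libraries to be tested. The 10 fibroblast markers, several of which this line expresses itself, summed to 751 to 764 CPM in WT and 720 to 759 CPM in clone 2.2, and DCN alone was called among the 6 tested. In these libraries CDH1, CDX2 and EPCAM were thus absent or nearly so, and the mesenchymal marker VIM was high. The epithelial markers VIL1, KRT20 and KRT19 were below the expression filter. KRT18 (61.4 CPM in WT and 99.3 CPM in clone 2.2) and KRT8 (11.3 and 18.6 CPM), also epithelial markers, were expressed.

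TWIST1 is a basic helix-loop-helix transcription factor that dimerises with E proteins and binds E-box sequences. In carcinoma cells it is known for driving epithelial-mesenchymal transition (EMT), a programme in which cell junction genes are switched off and genes of the matrix, the contractile cytoskeleton and migration are switched on. SPON2 encodes a secreted matrix protein of the F-spondin family and is the TWIST1 target on which the study centred.

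Promoter sequences are shown for genes of the 3 groups described most fully below, to let the letters known from their regulation be seen beside the values. Each is the 250 bases before the start of the gene in RefSeq (GRCh38.p14), written 5′ to 3′ on the strand of the gene, with matches to a motif in capitals. GBP1 and IFIH1 are interferon-stimulated genes that rose in clone 2.2, and capitals mark GAAANNGAAA on either strand, the core letters of the interferon-stimulated response element, where 2 matches may overlap.
GBP1, chr1:89065209-89065458, minus strand: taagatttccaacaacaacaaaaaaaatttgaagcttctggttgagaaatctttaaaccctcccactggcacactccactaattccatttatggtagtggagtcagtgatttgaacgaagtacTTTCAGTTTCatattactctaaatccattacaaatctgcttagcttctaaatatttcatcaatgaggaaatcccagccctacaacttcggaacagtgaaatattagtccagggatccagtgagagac
IFIH1, chr2:162318685-162318934, minus strand: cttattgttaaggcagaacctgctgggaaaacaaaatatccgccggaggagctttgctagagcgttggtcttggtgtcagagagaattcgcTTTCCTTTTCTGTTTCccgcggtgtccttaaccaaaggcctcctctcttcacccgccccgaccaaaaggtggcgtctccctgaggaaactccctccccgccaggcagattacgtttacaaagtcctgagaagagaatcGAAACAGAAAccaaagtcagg
CDC20 and SPC25 act in mitosis and fell in clone 2.2, and capitals mark CCAAT on either strand, the NF-Y box common in mitotic promoters.
CDC20, chr1:43358731-43358980, plus strand: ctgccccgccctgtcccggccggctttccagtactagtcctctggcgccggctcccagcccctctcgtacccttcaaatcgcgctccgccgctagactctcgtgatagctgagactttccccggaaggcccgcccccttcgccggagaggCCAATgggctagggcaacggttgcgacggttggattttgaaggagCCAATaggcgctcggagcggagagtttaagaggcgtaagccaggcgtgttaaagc
SPC25, chr2:168890431-168890680, minus strand: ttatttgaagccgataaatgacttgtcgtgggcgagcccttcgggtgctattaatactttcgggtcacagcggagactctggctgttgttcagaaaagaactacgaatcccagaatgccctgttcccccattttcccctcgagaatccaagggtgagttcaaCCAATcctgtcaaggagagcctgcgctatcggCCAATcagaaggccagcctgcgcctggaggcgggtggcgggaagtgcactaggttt
SPON2 fell in clone 2.2, and capitals mark CANNTG, the E-box bound by basic helix-loop-helix factors, which reads the same on both strands. The E-box that the study reports for SPON2 (CATCTG) was placed farther upstream and is not among the matches printed here.
SPON2, chr4:1208845-1209094, minus strand: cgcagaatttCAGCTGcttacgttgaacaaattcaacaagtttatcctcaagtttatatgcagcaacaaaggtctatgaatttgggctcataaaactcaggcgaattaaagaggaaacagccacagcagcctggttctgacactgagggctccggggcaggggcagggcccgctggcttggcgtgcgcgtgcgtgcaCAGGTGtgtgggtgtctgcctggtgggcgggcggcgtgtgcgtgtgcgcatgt
The nearest match lay 127 bases before the start in GBP1, 21 in IFIH1, 55 in CDC20, 56 in SPC25 and 53 in SPON2. GAAANNGAAA occurred in 839 of all 27305 promoters of this length (3.07%), CCAAT in 9021 (33%) and CANNTG in 16985 (62.2%). A match describes these letters and is not evidence of binding.

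The targeted gene itself was lower in clone 2.2. TWIST1 (ENSG00000122691.13, hg38 chr7:19020991-19117636, minus strand) was at 45.2, 52.7 and 40.6 CPM in the WT libraries and at 28.6, 29.1 and 30.6 CPM in the clone. All 3 clone libraries lay below all 3 WT libraries, and the means were 46.2 ± 6.08 and 29.4 ± 1.07 CPM (SD, n = 3), a log2 change of -0.65 (SE 0.07, adjusted p = 2.37e-09 by the quasi-likelihood test of edgeR with Benjamini-Hochberg adjustment, 13706 genes). The exact two-sided permutation test on the 6 libraries gave p = 0.10, the smallest it can give with 3 against 3. A small deletion or insertion in the coding sequence need not remove the mRNA, so this level does not check the edit. Without WT library B the log2 change was -0.53, short of the limit of 0.58 used for calls, and TWIST1 lies in a stretch of chromosome 7 whose genes were lower as a whole, by a median of -0.33. SPON2 (chr4:1166932-1208962, minus strand) had 117, 173 and 143 reads in WT and 9, 4 and 11 in clone 2.2. Its mean fell from 7.45 ± 1.29 to 0.415 ± 0.199 CPM, an 18-fold decrease (log2 change -4.17, SE 0.27).

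A gene was called changed when its absolute log2 change exceeded 0.58 at an adjusted p below 0.05. Of 13706 genes that passed the expression filter, 1104 rose in clone 2.2 (8.05%) and 910 fell (6.64%), together 14.7%, and the median log2 change over all genes was -0.01. The 3 clone libraries lay entirely above the 3 WT libraries for 1067 of the genes that rose and entirely below them for 886 of those that fell. The extremes were mostly decreases, since 85 genes fell at least 4-fold and 45 rose at least 4-fold, whereas 309 fell and 368 rose at least 2-fold. Protein-coding genes made up 864 of the increases and 772 of the decreases, and lncRNA genes 201 and 103. Because the libraries of a group were so alike, 3715 genes were higher and 3991 lower at an adjusted p below 0.05 without a limit on size.

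**Figure D1:**
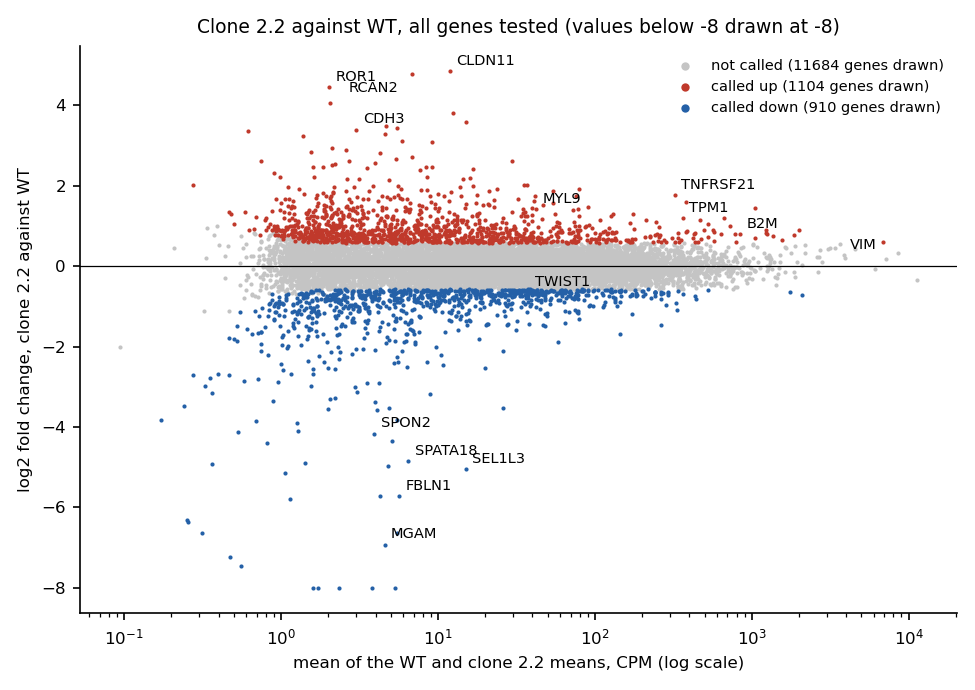
Each point is 1 gene tested, with its mean level in CPM on a log axis and its log2 fold change in clone 2.2 against WT on the vertical axis. Red points are the 1104 genes called up, blue points the 910 called down, and genes of chromosome Y are not drawn. Decreases reach further than increases, with FBLN1, SEL1L3 and SPATA18 at log2 changes of -5.72, -5.06 and -4.85, and CLDN11 and RCAN2 at 4.85 and 4.79.

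Among protein-coding genes that reached 5 CPM in the higher group, the largest increases were in genes low in WT. CLDN11, a tight junction claudin, had 15, 11 and 20 reads in WT and 488, 431 and 433 in clone 2.2, a 28.8-fold rise in CPM (log2 change 4.85, SE 0.20). It was at 0.0457 to 0.387 CPM in the libraries of the other clones, so it passed the expression filter through its level in clone 2.2. RCAN2, an inhibitor of calcineurin, had 7, 12 and 8 reads in WT and 225, 299 and 245 in the clone (log2 change 4.79). In both genes every clone library exceeded every WT library, which was a condition for being chosen here. The other genes among the 10 largest increases included PRSS33, a secreted serine protease (3.82), SCG2, a granin of secretory granules (3.58), RGS16, a brake on G-protein signalling (3.48), SERPINI1, neuroserpin (3.30), and NPTX1, neuronal pentraxin (3.10). Several of these genes are best known from neurons and secretory cells, but so are genes that fell, such as CBLN2 and CPT1C. No list of such genes was examined.

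By the same measure, the largest decreases were in genes of moderate level in WT that were lost or nearly lost in the clone. PDZD4, a PDZ domain protein gene on chromosome X, had 196, 234 and 183 reads in WT and 0 in each clone library, which is at least 69-fold lower when 0 is read as up to 3 counts in a library (0.146 to 0.159 CPM). MGAM, the intestinal maltase-glucoamylase, had 177, 171 and 178 reads in WT and 2, 2 and 0 in the clone, and FXYD6, a regulator of the sodium pump, had 203, 218 and 205 against 2 in each. These 3 genes thus had no or almost no reads left in the clone. SEL1L3 had 542, 587 and 565 reads in WT and 18, 16 and 17 in clone 2.2 (log2 change -5.06, SE 0.13). FBLN1, the matrix glycoprotein fibulin-1, had 198, 228 and 219 against 6, 2 and 4 (-5.72), and TNS1, the focal adhesion protein tensin-1, had 163, 217 and 163 against 2, 5 and 10 (-4.98). The p53 target SPATA18 had 238, 232 and 252 reads in WT and 9, 6 and 10 in the clone (-4.85), and CBLN2, a secreted synapse organiser, had 191, 196 and 179 against 11, 11 and 6 (-4.34). For PDZRN3, a ubiquitin ligase, the clone libraries were uneven, with 0, 1 and 8 reads against 163, 172 and 154 in WT.

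**Figure D2:**
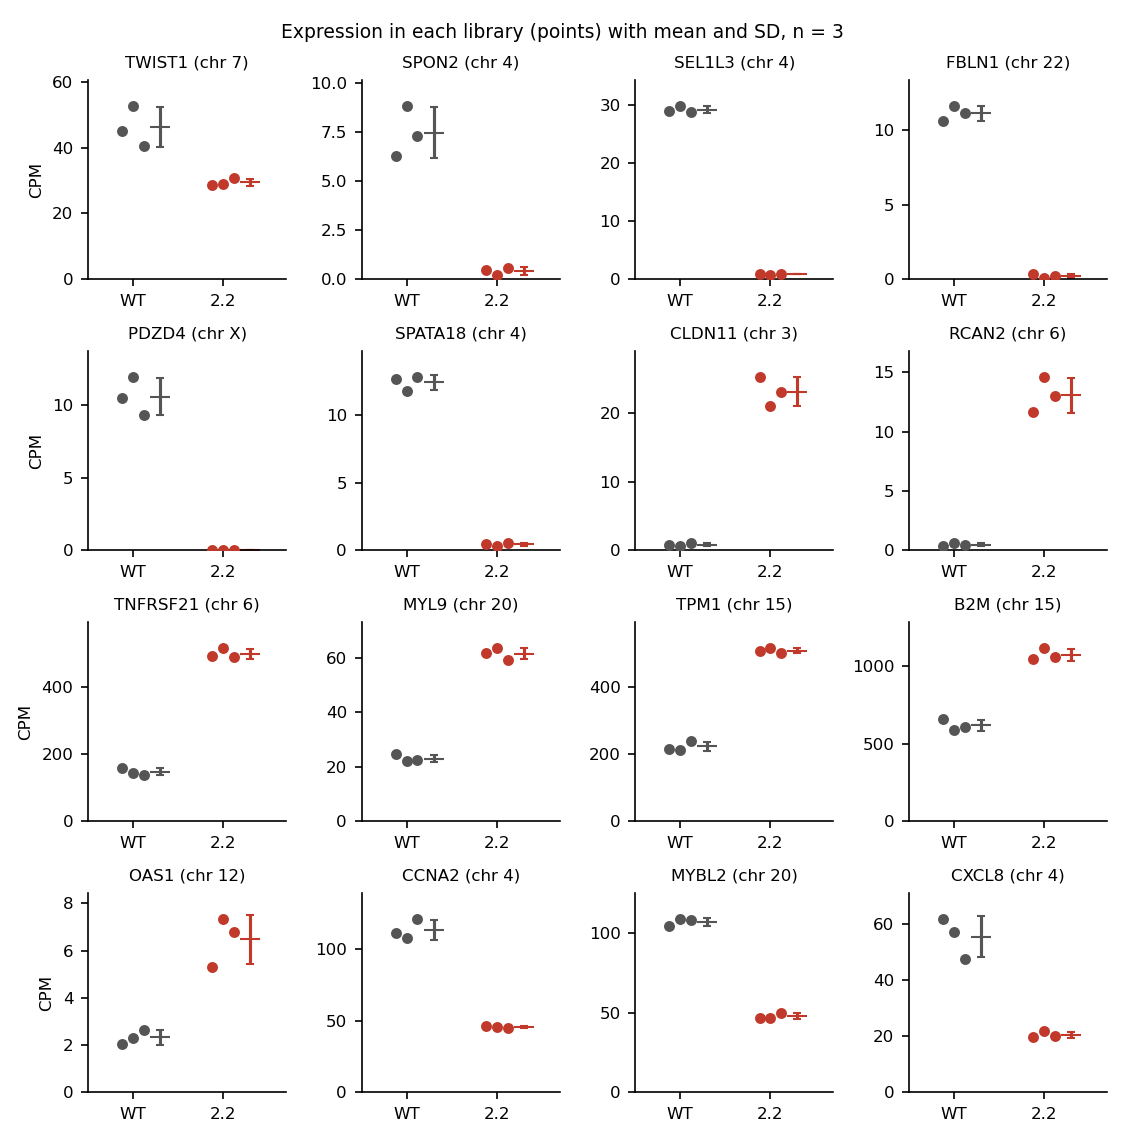
Each panel plots the CPM of 1 gene in the 3 WT and the 3 clone 2.2 libraries (points) with the mean and SD beside them, on axes that start at 0. In each of the genes drawn the groups do not overlap. For TWIST1 the lowest WT library is at 40.6 CPM and the highest clone library at 30.6 CPM.

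Genes that changed in clone 2.2 were not spread evenly over the chromosomes. On chromosome 4, 156 of 486 genes tested fell and 24 rose, 84.6% had a log2 change below 0, and the median was -0.40. The median of these genes relative to WT was -0.39, -0.37 and -0.41 in the 3 clone libraries and 0.00 in each WT library, so the shift was the same in every library of the clone. Clone 3.5 had a like median on chromosome 4 (-0.42), and clones 1.1, 3.2 and 3.6 did not (0.00, 0.02 and 0.02). On chromosome 7 below 60 Mb, 52 of 226 genes fell and 6 rose (median -0.33, at -0.33 in each clone library), against medians of -0.17, 0.03, 0.05 and 0.05 in clones 1.1, 3.2, 3.5 and 3.6. Chromosome 11 showed a smaller shift, with 83 of 764 genes down, 35 up and a median of -0.19, while the other clones had medians of -0.01, -0.03, 0.01 and 0.00. At the end of chromosome 3, above 170 Mb, 27 of 128 genes rose and 1 fell (median 0.31), and the medians of the other clones were -0.06, -0.06, -0.06 and 0.00. Over the 12102 genes elsewhere the median was 0.01, with 1012 up and 618 down. Medians of -0.21 on chromosome 14 and -0.25 on chromosome 18 were also seen in clone 2.2, with like values in all other clones. Chromosome 13 had a median of -0.22, with 39 of 257 genes down (15.2%) and 16 up, against -0.04, 0.05, -0.06 and -0.27 in clones 1.1, 3.2, 3.5 and 3.6, and holds SLC7A1, COL4A1 and COL4A2. Chromosome 5 was higher, with a median of 0.17 in clone 2.2 and 0.12, 0.11, 0.12 and 0.14 in the other clones. The 4 stretches were chosen after their medians were seen. The DNA of the clone was not analysed here, and the part of these shifts in the changes of single genes was not tested. Of the genes named here, SEL1L3, SPATA18, SPON2, SPOCK3, SPP1, IGFBP7, CXCL3, CXCL8, NFKB1, CENPE, CCNA2, MAD2L1, PLK4, ELOVL6, MSMO1, SLC7A11, BTC and LEF1 lie on chromosome 4. FXYD6, DUSP8, TAGLN, MCAM, THY1, MMP1, MMP10, IFITM3, DHCR7 and TM7SF2 lie on chromosome 11, and TWIST1, IGFBP3, ITGB8, HOXA5 and HOXA6 in the stretch of chromosome 7. CLDN11, ZMAT3 and EPHB3 lie in the stretch of chromosome 3.

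**Figure D3:**
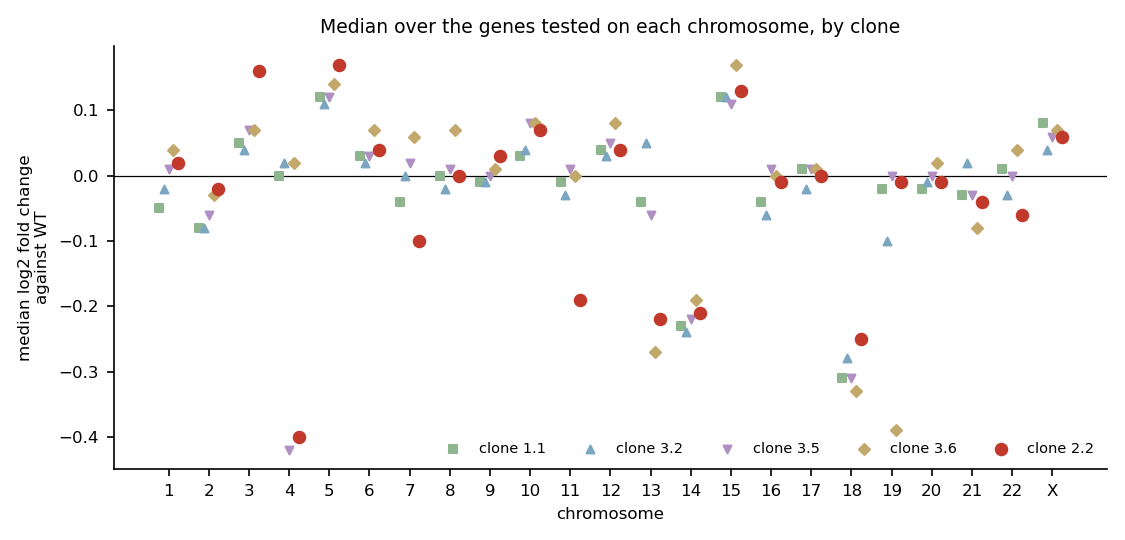
The median log2 fold change against WT of the genes tested on each chromosome is drawn for clone 2.2 (red) and the other clones, which share the WT libraries. Clone 2.2 is low on chromosome 4 with clone 3.5, low on chromosome 11 alone, low on chromosome 13 with clone 3.6, and low on chromosomes 14 and 18 with all clones.

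The log2 change of SPON2 differed from the median of the whole of chromosome 4 by -3.76 and that of TWIST1 from the median of its stretch by -0.32. On chromosome 4 the chemokine genes CXCL3 and CXCL8 differed from that median by -1.50 and -1.03, the kinetochore motor gene CENPE by -1.06 and the cyclin gene CCNA2 by -0.91. MSMO1, of sterol synthesis, differed by -0.22. The shift was uneven along chromosome 4. The 10 Mb windows of SPON2 and MSMO1 had medians of -0.25 and -0.24. Those of CXCL3 and CXCL8, of CENPE and of CCNA2 had medians of -0.52, -0.56 and -0.53. Against its own window each of CXCL3, CXCL8, CENPE and CCNA2 thus differed less, and MSMO1 more.

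Gene lists were described by how many of their tested members were called, beside the 14.7% called and the median of -0.01 over all genes. The standard errors of the log2 changes named from here on were between 0.03 and 0.49, and every change named as a rise or fall passed the test above.

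Of 13 EMT transcription factors tested, 3 fell and none rose (23.1% called, median 0.06). Beside TWIST1, FOXC2, a forkhead factor of mesenchyme, fell from 9.06 ± 0.865 to 1.88 ± 0.484 CPM (log2 change -2.26, SE 0.22), and PRRX1, a paired-type homeobox factor known from EMT, fell from 28.5 ± 1.32 to 8.13 ± 0.537 CPM (-1.81, SE 0.08). For both the groups lay well apart, with PRRX1 at 27.3 to 29.9 CPM in WT and 7.52 to 8.54 CPM in the clone. The other EMT factors did not pass: ZEB1, a repressor of E-cadherin, had a log2 change of -0.45, SNAI2 (Slug) one of 0.28, and TCF3 and TCF12, the E protein partners of TWIST1, -0.12 and -0.01.

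Of 33 mesenchymal effector genes tested, 11 rose in clone 2.2 and 2 fell (39.4% called, median 0.35), and outside the 4 stretches 10 of 28 rose and 1 fell (median 0.44). The largest increase was in MYL9, the regulatory light chain of myosin, which was at 24.5, 22 and 22.5 CPM in WT and 61.6, 63.4 and 59.2 CPM in the clone (log2 change 1.42, SE 0.08). TPM1, tropomyosin 1, rose from 222 ± 14.2 to 506 ± 6.76 CPM (1.19, SE 0.04). CALD1 (caldesmon) rose from 577 to 994 CPM (0.79), TPM2 by a log2 change of 0.70 and TAGLN (transgelin) by 0.61. These genes all bind actin or myosin. The collagen cross-linking enzymes LOXL1 (1.25) and LOX (0.79) rose as well, as did VCAN (versican, 1.14), TNC (tenascin-C, 0.83), SPARC (0.60) and FN1 (fibronectin, 0.59). DCN (decorin) and MCAM fell (-1.87 and -1.02), the former from 0.828 to 0.223 CPM. VIM (0.28) did not pass the limit on size.

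**Figure D4:**
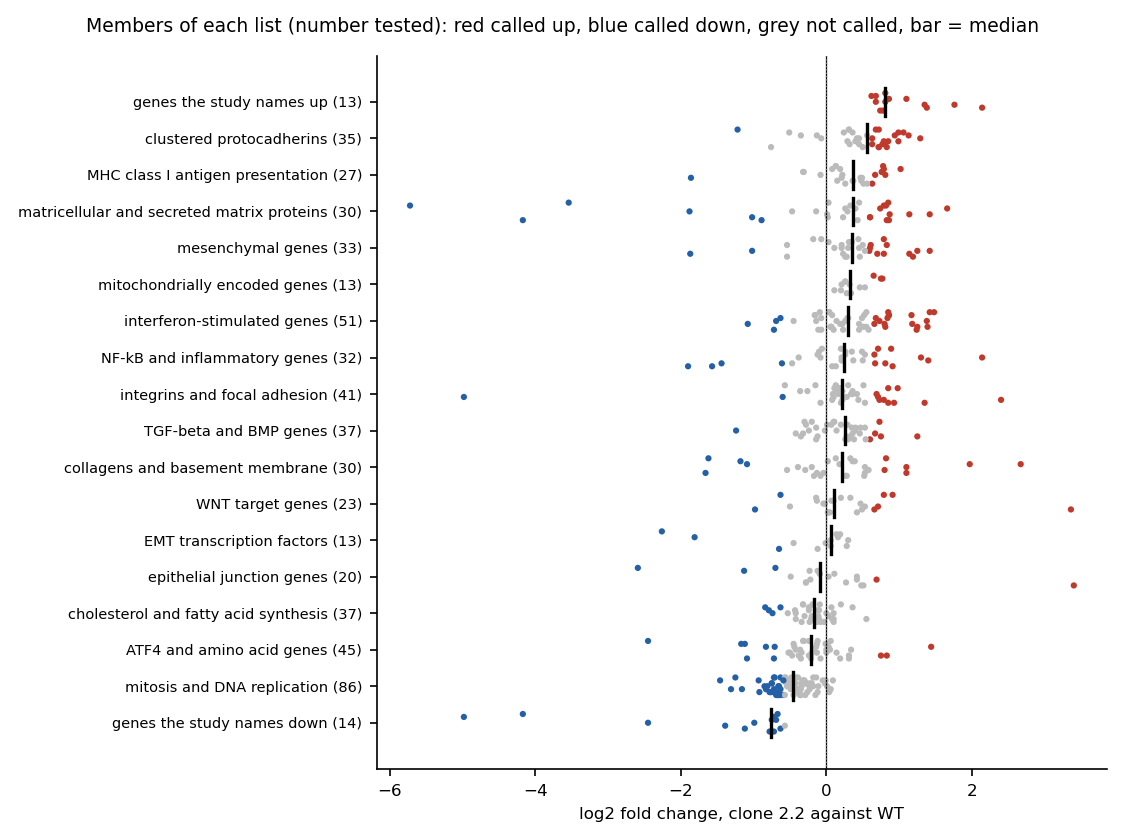
Each point is 1 tested member of a list, placed at its log2 fold change in clone 2.2 against WT, in red where called up, blue where called down and grey where not called, with a bar at the median and the dotted line at the median of all genes (-0.01). Mesenchymal, matricellular, interferon-stimulated and MHC class I genes lie mostly to the right, and genes of mitosis mostly to the left with a median of -0.46.

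Secreted matrix proteins moved in both directions and often far. Of 30 matricellular and secreted matrix proteins 12 rose and 6 fell (60% called, median 0.36), and outside the stretches 11 of 23 rose and 2 fell. THBS1 (thrombospondin 1) rose from 915 to 1590 CPM (0.79), SPOCK1 from 272 to 496 CPM (0.87), IGFBP5 from 3.59 to 9.59 CPM (1.42) and IGFBP7, on chromosome 4, from 15.6 to 49.1 CPM (1.66). FBLN5 (fibulin-5) fell from 8.97 ± 0.0574 to 0.772 ± 0.204 CPM (-3.54, SE 0.26), beside its relative FBLN1. The other 4 members that fell lie in the chromosome 4 and 7 stretches, namely SPON2, SPOCK3 (-1.88), SPP1 (osteopontin, -1.02) and IGFBP3 (-0.89).

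Of 30 collagens and basement membrane genes 6 rose and 4 fell (33.3% called, median 0.22). The type IV collagen chains COL4A1 (156 to 334 CPM, 2.14-fold) and COL4A2 (461 to 805 CPM, 0.80) rose together, as did COL6A1 (0.82) and COL18A1 (46.7 to 100 CPM), and COL22A1 rose from 1.47 to 9.34 CPM (2.67). The laminin chains LAMA5 (-1.66) and LAMB3 (-1.09), NID2 (nidogen-2, -1.62) and COL5A2 (-1.18) fell. COL1A1, the major fibrillar collagen, was at 612 CPM in WT and 577 CPM in the clone and was not called.

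Of 41 integrin and focal adhesion genes 10 rose and 2 fell (29.3% called, median 0.22). The receptor subunits ITGA11 (2.46 ± 0.328 to 13 ± 0.0574 CPM, 5.29-fold), ITGA1 (log2 change 1.35), ITGA10 (0.93), ITGB5 (0.85), ITGB8 (0.73), ITGAV (0.71) and ITGB1 (0.69) rose. ITGB1 pairs with ITGA1, ITGA10 and ITGA11 to form receptors for collagen. Among cytoplasmic partners VCL (vinculin) rose from 410 to 742 CPM (0.85) and NEDD9 by 0.98, while TNS1, the largest change in the list, and CSRP1 (-0.60) fell. Of 40 matrix proteases and their inhibitors 8 rose and 5 fell (32.5% called, median 0.17). MMP2 (gelatinase A) rose from 1210 to 1910 CPM (0.65), MMP24 by 1.67 and ADAMTS12 by 0.91, whereas the aggrecanase ADAMTS5 (-2.39), the cathepsin CTSV (-1.37), MMP15 (-1.15), MMP1 (interstitial collagenase, -0.83, on chromosome 11) and F3 (tissue factor, -0.78) fell. F3, a coagulation cofactor, is counted in this list although it is neither a protease nor an inhibitor.

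Many of the listed epithelial genes were too low in these libraries to be tested. The 43 junction genes summed to 1080 to 1090 CPM in WT and 1290 to 1330 CPM in the clone. Much of that sum came from CTNNA1 (355 to 506 CPM) and CTNNB1 (314 to 379 CPM), which were not called. Of the 43 genes 20 passed the expression filter, of which 2 rose and 3 fell (25% called, median -0.09). CDH3 (P-cadherin) rose from 0.588, 0.509 and 0.459 CPM in WT to 5.11, 5.81 and 5.62 CPM in the clone (log2 change 3.40, SE 0.25), and DSG2 (desmoglein 2) rose by 0.69. The tight junction proteins CGNL1 (-2.59) and CGN (cingulin, -1.13) fell, and so did JUP (plakoglobin, -0.70), whose groups overlapped and whose call was lost in several alternatives. The 36 intestinal epithelial genes summed to 590 to 597 CPM in WT and 754 to 779 CPM in the clone. Much of that sum came from SOX9 (303 to 391 CPM) and EPHB2 (151 to 202 CPM), which were not called. Of the 36 genes 17 were at 0 in all 6 libraries and 8 were tested (37.5% called). KRT8 (11.3 to 18.6 CPM, 0.72) and KRT18 (61.4 to 99.3 CPM, 0.69), the paired keratins of simple epithelia, rose and GATA6 (-0.83) fell. KRT8 and KRT18 were the 2 genes called among 5 keratins tested (40%).

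Many interferon-stimulated genes rose in clone 2.2. Of 51 tested 17 rose and 4 fell (41.2% called, median 0.30), and outside the stretches 15 of 42 rose and 4 fell (median 0.47). GBP1, an interferon-induced GTPase, rose from 18.9 ± 0.153 to 50.7 ± 2.58 CPM (log2 change 1.42, SE 0.08). The RNA sensor IFIH1 (MDA5) was at 4.01, 2.8 and 3.42 CPM in WT and 7.9, 9.52 and 9.23 CPM in the clone (1.38, SE 0.13). OAS1 (1.48), IFIT2 (1.39), SAMD9L (1.25), GBP2 (1.24), MX2 (1.17) and the transcription factor IRF1 (28.3 to 64.1 CPM, 1.18) also rose, as did the ubiquitin-like modifier ISG15 (0.80). RSAD2 (viperin, -1.08), USP18 (-0.72), CMPK2 (-0.69) and MX1 (-0.63), which belong to the same response, fell, and LGALS3BP did not pass (0.30). The motif GAAANNGAAA was found in the promoters of 6 of the 12 called-up members with a RefSeq promoter entry, in 0 of 3 that fell and in 13 of 23 that were not called.

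Of 27 genes of antigen presentation on MHC class I, 8 rose and 1 fell (33.3% called, median 0.37). B2M, the light chain of every class I molecule, rose from 618 ± 34.7 to 1070 ± 38.6 CPM (0.79, SE 0.04). HLA-F (0.77), the peptide transporter subunit TAP1 (0.78), the trimming enzyme ERAP2 (0.81) and the immunoproteasome subunits PSMB8 (0.67), PSMB9 (0.76) and PSMB10 (1.02) rose. MICB, a stress-induced ligand of natural killer cells, fell from 8.3 to 2.29 CPM (-1.86), and the chaperones CALR (-0.32) and CANX (0.19) were not called. HLA genes are alike in sequence, and reads shared between them may be counted unevenly. In the NF-kB and inflammatory list 9 of 32 rose and 4 fell (40.6% called, median 0.24). The lncRNA MIR3142HG was at 1.5, 1.83 and 2.04 CPM in WT and 7.85, 7.91 and 8.01 CPM in the clone (2.14, SE 0.16). The chemokine CCL2 (101 to 249 CPM, 1.30), the adaptor TRAF1 (1.40), the cytokines IL1B (0.91) and IL1A (0.89), the feedback inhibitor TNFAIP3 (0.81) and the adhesion receptor ICAM1 (0.66) rose. The neutrophil chemoattractant CXCL8 fell from 55.4 ± 7.23 to 20.4 ± 1.1 CPM (-1.44), together with CXCL3 (-1.90) and NFKB1 (-0.61), all on chromosome 4, and TNFAIP2 (-1.57), which lies outside the stretches.

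Of 86 genes of mitosis and DNA replication tested, 30 fell and none rose (34.9% called, median -0.46), 4 had a log2 change above 0, and outside the stretches 23 of 75 fell (median -0.43). The same list had medians of -0.60, -0.42, -0.67 and -0.64 in clones 1.1, 3.2, 3.5 and 3.6 against the same WT libraries. CENPE fell from 68.9 ± 2.71 to 25 ± 0.982 CPM (-1.46), CCNA2 (cyclin A2) from 113 ± 6.66 to 45.6 ± 0.575 CPM (-1.31), and MYBL2 (B-Myb), a transcription factor of the cell cycle, from 107 ± 2.36 to 48.1 ± 1.83 CPM (-1.16). POLE2, a subunit of DNA polymerase epsilon, was at 10, 10.5 and 11.6 CPM in WT and 4.75, 4.44 and 4.35 CPM in the clone (-1.25). CENPE and CCNA2 lie on chromosome 4, as do MAD2L1 (-0.93) and PLK4 (-0.92), whereas MYBL2 and POLE2 lie outside the stretches. The kinetochore genes SPC25 (-0.85) and SPC24 (-0.83), the anaphase activator CDC20 (178 to 115 CPM, -0.63), the mitotic transcription factor FOXM1 (-0.65), BIRC5 (survivin, -0.66), TYMS (thymidylate synthase, -0.71), TK1 (thymidine kinase, -0.75), MCM2 (-0.65) and E2F1 (-0.59) fell. MKI67 (-0.36), MCM7 (-0.39) and TPX2 (-0.48) were not called. In bulk RNA fewer cycling cells and less of these RNAs per cell cannot be told apart. CCAAT was found in the promoters of 13 of 27 members that fell (48.1%) and of 31 of 44 that were not called (70.5%).

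Among signalling genes, the WNT target list had 5 of 23 members up and 2 down (30.4% called, median 0.10). WNT5A, a ligand of non-canonical signalling, was at 307, 312 and 319 CPM in WT and 539, 554 and 526 CPM in clone 2.2 (log2 change 0.79, SE 0.03). WNT6 rose from 3, 1 and 2 reads to 11, 32 and 23 (3.36, SE 0.49), and PROX1 (0.91) and the feedback inhibitors NKD1 (0.66) and NKD2 (0.71) rose, while EPHB3 (-0.98) and LEF1 (-0.63, chromosome 4) fell. In the receptor tyrosine kinase list 5 of 33 rose and 2 fell (21.2% called, median 0.03), and outside the stretches 3 of 23 rose. ROR1, a receptor for WNT5A, had 4, 2 and 4 reads in WT and 69, 93 and 67 in the clone (4.45, SE 0.36). Both a ligand and a receptor of that pathway were thus higher. NTRK3, the neurotrophin-3 receptor, rose from 5.78 to 17.9 CPM (1.63) and IGF1R by 0.66, and the EGF family ligand BTC fell (-1.76, chromosome 4).

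In the TGF-beta and BMP list 5 of 37 rose and 1 fell (16.2% called, median 0.26). The ligands TGFB2 (1.25), TGFB1 (363 to 550 CPM, 0.60) and GDF15 (0.75) and the feedback inhibitor PMEPA1 (0.73) rose, and BMP2 fell from 70 to 29.5 CPM (-1.24). Of 33 genes of MAPK feedback 3 rose and 4 fell (21.2% called), among them DUSP6 up (0.64) and FOSB (-2.14), DUSP8 (-1.06), DUSP1 (-0.72) and DUSP10 (-0.66) down. Of 20 Notch genes JAG1 (60.8 to 123 CPM, 1.02), DTX1 (1.07) and DLL4 (0.93) rose and HEY1 (-1.27) and DLL3 (-0.79) fell (25% called), with the call of DLL4 lost in several alternatives. Of 16 lysophospholipid receptors and enzymes 1 rose and 5 fell (37.5% called, median -0.11). The lysophosphatidic acid receptors LPAR4 (-2.85) and LPAR1 (36.5 to 18.4 CPM, -0.99) and the sphingosine 1-phosphate receptor S1PR3 (-1.16) fell, and LPAR2 rose (0.97). Of 13 ephrins and Eph receptors EPHB3, EPHB6 (-1.10) and EFNA5 (-0.63) fell and none rose (23.1% called). The median was 0.15, with 8 members above 0, so the list as a whole was not lower. Of 29 YAP and TEAD targets 2 rose and 4 fell (20.7% called, median -0.10), with NUAK2 up (0.78) and FOXF2 down (-0.84).

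Of 45 ATF4 and amino acid genes 7 fell and 3 rose (22.2% called, median -0.21). SLC7A5, the large neutral amino acid transporter LAT1, was at 18, 20.7 and 15.9 CPM in WT and 3.25, 3.66 and 3.08 CPM in the clone (-2.45, SE 0.16). The cationic amino acid transporter SLC7A1 (107 to 48.9 CPM, -1.12), the cystine transporter SLC7A11 (-0.72, chromosome 4), PYCR1 of proline synthesis (-0.83) and PSAT1 of serine synthesis (-0.71) fell, while DDIT4, a stress-induced inhibitor of mTORC1, rose (1.44). In the cholesterol and fatty acid synthesis list 4 of 37 fell and none rose (10.8% called, median -0.17), and all of these lie in the chromosome 4 and 11 stretches, DHCR7 (543 to 326 CPM, -0.74), TM7SF2 (-0.79), ELOVL6 (-0.84) and MSMO1 (-0.63). Of 40 NRF2 and detoxification genes 3 rose and 4 fell (17.5% called), and the drug efflux pump ABCB1 fell from 4.22, 2.96 and 4.84 to 0.568, 0.244 and 0.424 CPM (-3.27, SE 0.28). Of 40 hypoxia and glycolysis genes 2 rose and 3 fell (12.5% called), with the lactate exporter SLC16A3 up (21.9 to 52.3 CPM, 1.25) and hexokinase HK2 down (-0.70).

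Of 36 p53 targets 3 rose and 1 fell (11.1% called, median 0.17), BTG2 by 1.48, ZMAT3 by 0.82 and GDF15 by 0.75, and SPATA18 was the gene that fell. CDKN1A (p21) had a log2 change of 0.40 and was not called. Clustered protocadherins, adhesion molecules encoded in tandem on chromosome 5, had 17 of 35 members up and 1 down (51.4% called, median 0.56), led by PCDHB13 (10.3 to 25.1 CPM, 1.29) and PCDHB14 (8.28 to 18.1 CPM, 1.13). Members of the alpha and gamma clusters share exons, so their counts are uncertain. The clusters lie in a 10 Mb window of chromosome 5 with a median of 0.35 and 28 of 93 genes up, protocadherins included, and the windows on both sides had medians of 0.33 and 0.27. In clones 1.1, 3.2, 3.5 and 3.6 the window of the clusters had medians of 0.35, 0.39, 0.45 and 0.45. Of 23 HOX genes HOXB4 (1.20) and HOXB5 (0.79) rose, and 3 fell (21.7% called, median 0.05), among them HOXA6 (-0.92) and HOXA5 (-0.75), with all 3 in the chromosome 7 stretch. Of 13 mitochondrially encoded genes MT-CYB (0.77), MT-ND5 (0.75) and MT-ND6 (0.65) rose (23.1% called, median 0.32). The study chose 13 genes as up and 14 as down on knockout and knockdown samples of this series, which share at least the WT libraries, so their direction is not independent evidence. All 13 rose in clone 2.2, among them TNFRSF21 (death receptor 6), at 159, 145 and 139 CPM in WT and 492, 516 and 489 CPM in the clone (1.76, SE 0.05), and 13 of the 14 fell, with SYNE1 at -0.57 just short of the limit.

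Clone 2.2 was then set against the mean of the other 4 clones, a contrast in which WT is not the reference. At the same limits 567 genes were higher in clone 2.2 (4.14%) and 1022 lower (7.46%), together 11.6% of 13706. The number higher depended on the filter, with 1220 higher and 1437 lower when no gene was filtered out and 944 higher and 1399 lower with the filter of edgeR. SPON2 was lower than the mean of the other clones (log2 difference -2.28, SE 0.29, adjusted p = 2.06e-08 by edgeR with Benjamini-Hochberg adjustment), with means of 0.568, 2.08, 3.02 and 4.53 CPM in clones 1.1, 3.2, 3.5 and 3.6 against 0.415 CPM in clone 2.2. TWIST1 differed by -0.57, just within the limit on size.

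Of 33 mesenchymal genes 5 were higher in clone 2.2 than the mean of the other clones and 3 were lower, against 4.14% and 7.46% of all genes. The share higher exceeded that of all genes, and the share lower was near it. MYL9 was at 59.2 to 63.4 CPM in the libraries of clone 2.2 and at 1.08 to 4.81 CPM in all 12 libraries of the other clones, with WT at 23 ± 1.36 CPM between them (log2 difference 4.80, SE 0.07). TAGLN (2.17), TPM1 (1.54), CALD1 (0.94) and LUM (0.81) were also higher, and DCN (-2.29), MCAM (-1.11) and THY1 (-0.69) were lower. THBS1 (2.11), CCN1 (1.53) and CCN2 (1.48), matricellular genes of the YAP response, were higher too. CCN2 was at 295 CPM in clone 2.2, 325 CPM in WT and 86.2 to 136 CPM as the means of the other clones. In the whole list of 29 YAP and TEAD targets 5 were higher and 2 lower, with a median difference of 0.15. The share lower did not exceed that of all genes. Of 30 matricellular genes 9 were higher and 6 lower, FBLN1 the most (-5.49), with means of 2.03, 10.9, 5.71 and 63.5 CPM in the other clones.

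The sterol pathway also differed. In the cholesterol and fatty acid synthesis list 10 of 37 genes were higher in clone 2.2 than the mean of the other clones and 1 was lower, against 4.14% and 7.46% of all genes. HMGCS1, an early enzyme of the mevalonate pathway, was at 206 CPM in clone 2.2 and 218 CPM in WT, and at 118, 120, 98.9 and 112 CPM in clones 1.1, 3.2, 3.5 and 3.6 (log2 difference 0.88, SE 0.03). INSIG1, which retains the sterol sensor in the endoplasmic reticulum (0.98), CYP51A1 (0.97), MVD (0.74), and IDI1 (0.70) differed likewise, while their log2 changes against WT lay between -0.24 and 0.07. Of 40 NRF2 and detoxification genes 7 were higher, including HMOX1, haem oxygenase 1 (1.32), and GCLM of glutathione synthesis (0.91), and 1, ABCB1, was lower (-3.28).

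Of 51 interferon-stimulated genes 3 were higher in clone 2.2 and 10 lower in this comparison, against 4.14% and 7.46% of all genes. The share higher was thus near that of all genes, and the share lower exceeded it. GBP1 was higher, at 50.7 CPM against 25.7, 16.4, 24 and 17.3 CPM in the other clones (1.31), as were OAS1 (0.78) and OAS2 (0.61). RSAD2 (-2.36), ISG20 (-1.80), LGALS3BP (-0.79) and IFITM3 (-0.62) were lower. Of 23 WNT target genes 4 were lower and 1 was higher, with NKD1 at 164 CPM against 370, 329, 220 and 218 CPM (-0.75). In the matrix protease list 10 of 40 were lower than the mean of the other clones, among them MMP10 (-2.50), at 2.48 CPM against 16.4, 23.4, 4.02 and 24.9 CPM, and MMP1 (-1.47). Of 86 genes of mitosis 3 were higher (CDC25A, CCNE1 and CCNE2) and 1, CENPE, was lower, and neither share exceeded that of all genes.

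In 123 genes the change in clone 2.2 against WT was opposite in sign to the mean change of the other clones, which could be small, and clone 2.2 also differed from the other clones in that direction. CLDN11 had 431 to 488 reads in the libraries of clone 2.2 and 1 to 7 in those of the other clones (0.0457 to 0.387 CPM), with 11 to 20 in WT. SPATA18 was at 0.293 to 0.531 CPM in clone 2.2 and 8.11 to 22.4 CPM in the other clones. In both genes the WT level lay between that of clone 2.2 and the mean of the other clones.

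**Figure D5:**
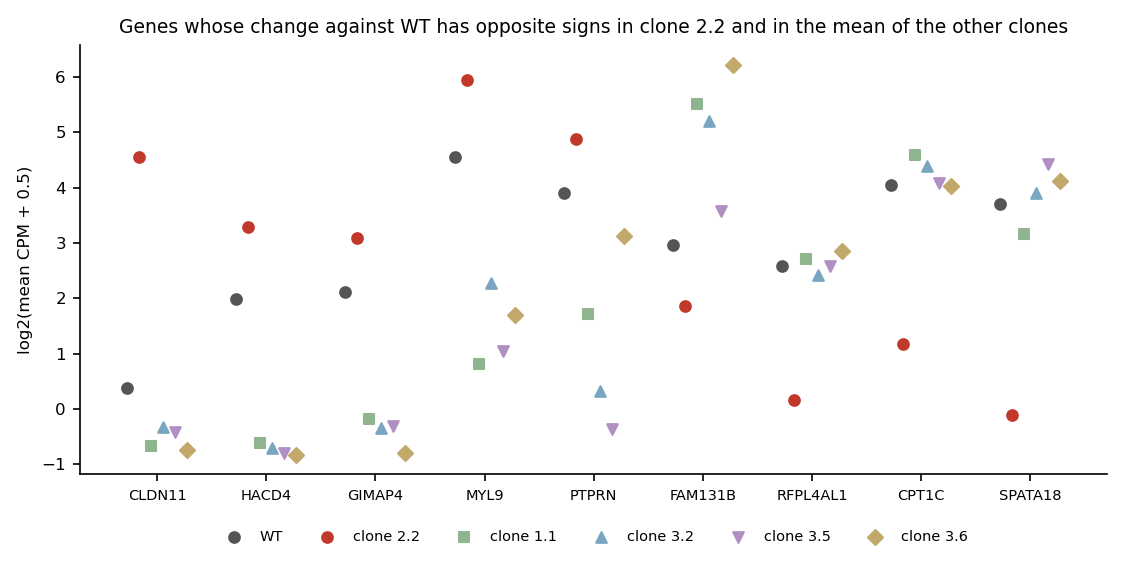
Mean expression as log2(CPM + 0.5) is drawn for 9 genes in WT, clone 2.2 and each other clone, 3 libraries per point. In the genes on the left clone 2.2 is highest (MYL9 at 61.4 CPM), and in those on the right it is lowest (SPATA18 at 0.429 CPM), with WT nearer to the other clones in RFPL4AL1, CPT1C and SPATA18.

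TWIST1 binding in unedited MDST8 cells was available as 1 list of ChIP-seq peaks. A peak lay within 3000 bp of the start of 76.5% of all genes tested, of 71.8% of the genes that rose in clone 2.2 and of 72.9% of those that fell, so peaks were no more frequent at changed genes in this list. The strongest promoter peak of TWIST1 had a fold enrichment of 2.39 (MACS2 q value of 0.82) and that of SPON2 one of 3.2 (q value of 0.544). FBLN1, FXYD6, TNS1 and RCAN2 had no peak in this window, whereas KRT18 and KRT8 shared 1 peak of fold enrichment 4.02 (q value of 0.082). The largest promoter peaks among the named genes were those of NID2, which fell (7.78, q value of 3.95e-09), and SERPINI1, which rose (4.92, q value of 0.00252). The list comes from a single library, so these shares have no replicate error.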

How the data were processed

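Polyadenylated RNA of MDST8 cells was sequenced in 18 libraries (WT and 5 TWIST1 knockout clones, 3 each). Per the labels and the study's methods, the authors trimmed reads (Trim Galore 0.6.6), aligned them to hg38 (HISAT2 2.1.0, SAMtools 1.6) and deposited counts per gene (featureCounts 2.0.0) for 62703 genes. The file header shows paired counting without strand, so overlapping and antisense genes may share reads. The total count was 17252883 to 22217009 per library. A gene length column (other) was not used. Symbols came from the annotation of the same build (62686 matched).

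Genes with a geometric mean of at least 1 RPM over the 18 libraries, computed on RPM + 1 less 1 so that a 0 does not exclude a gene, were kept (13706) and tested with edgeR 4.0.16 (TMM factors, quasi-likelihood test, all 18 libraries in 1 fit of group means, Benjamini-Hochberg adjustment over all genes tested) in R 4.3.3. Genes were called at an adjusted p below 0.05 and an absolute log2 change above 0.58, the limits of the study. The study used limma on log2 counts, which was an alternative here (limma 3.58.1), as was DESeq2 1.42.0. CPM are TMM-normalised. The expression filter uses all libraries, so a gene high in 1 group only can be missed or kept through that group. Named genes were TWIST1 and SPON2, the 10 protein-coding genes with the largest increase and decrease (groups separate, mean of at least 5 CPM in the higher group), up to 4 called and 2 uncalled members of each of 35 lists, and up to 5 genes in each direction that ran opposite to the other clones. Some genes that meet these criteria are not reported here. Further members of lists were named after their values were seen. The clone, the gene lists and the tests were chosen with earlier results of these data known. Tests were checked on simulated counts. Bounds for genes at 0 take 3 counts in a library and cover counting error only.

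For binding, 1 deposited peak list of 338877 peaks was used, which the authors made from MDST8 WT chromatin (Bowtie2 2.4.5, MACS2 2.2.7.1). It gives the fold enrichment (a ratio), −log10 p-value, −log10 q-value, a score and the summit position of each peak, all as deposited. p and q were converted back from −log10. A gene had a promoter peak when a peak overlapped 3000 bp on either side of its annotated 5′ end. Motifs were searched on both strands of the 250 bases before the start of 27305 genes. Data were handled in Python 3.11.15 with pandas 2.3.3, numpy 2.4.6 and scipy 1.17.1, and drawn with matplotlib 3.10.9. Alternatives were other factors, filters, tools and fits, leaving out each library, other windows and peak limits, and, added after seeing the data, leaving out the 4 chromosome stretches. Libraries of other cell lines and the knockdown were not used here.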

Additional observations from a re-analysis of the deposited data

Results flagged for a closer look

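Clone 2.2 differed from the mean of the other 4 clones in 9 genes whose change against WT was opposite in sign to the mean change of the others, by the edgeR test of the difference itself. That mean change was small for RFPL4AL1 (0.08, not called), SPATA18 (0.21) and CPT1C (0.24), which fell in clone 2.2, and clone 1.1 was lower than WT in SPATA18 too (-0.56). They were among the most different of 123 such genes, so their size is partly fixed by the choice. CLDN11 also passed the expression filter through its level in clone 2.2. The log2 difference was 6.98 for CLDN11, 6.52 for HACD4, 5.07 for GIMAP4, 4.80 for MYL9 and 4.29 for PTPRN, all higher in 3 of 3 libraries of clone 2.2 than in any library of the other clones. HACD4, an enzyme of very long chain fatty acids, was at 8.69 to 9.61 CPM in clone 2.2 and at 0 to 7 reads in the other clones, and GIMAP4, a GTPase known from lymphocytes, was at 7.39 to 8.5 CPM and at 0 to 10 reads, so both differences depend on few reads. PTPRN, a secretory granule protein, was at 27 to 30.7 CPM against 0.203 to 9.23 CPM.

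The difference was -5.06 for SPATA18, -3.45 for FAM131B, -3.42 for CPT1C and -3.22 for RFPL4AL1, all lower in 3 of 3 libraries of clone 2.2. CPT1C, a carnitine palmitoyltransferase of neurons, was at 1.64 to 1.91 CPM against 14.2 to 24.9 CPM, and FAM131B at 2.89 to 3.55 CPM against 9.96 to 76.6 CPM. RFPL4AL1 belongs to a family of near-identical copies, so its counts are uncertain. Each group is 1 clone or a mean of 4 clones, and the part of cloning in these differences was not tested.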

How the results depend on the processing

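The numbers of genes called against WT stayed within 1.5 times of 1104 and 910 under all alternatives run, and apart from leaving out the stretches lay between 1013 and 1398 up and between 835 and 1264 down, and no result reversed. DESeq2 called 1095 up and 879 down, limma on log2 counts 1130 and 835, and the fit without a filter 1382 and 1264 of 36578 genes. Leaving out each library in turn gave 1013 to 1150 up and 867 to 923 down. Without the 4 chromosome stretches 1012 rose and 618 fell. The number higher than the other clones, 567, went to 1220 without a filter and to 944 of 16722 genes with the filter of edgeR, both of which test more genes. The median of the chromosome 7 stretch was -0.33 with TMM factors and with the size factors of DESeq2, and the difference between these values, though below the digits printed, exceeded the spread between the clone libraries. Promoter peak shares fell to 53.4% of all genes, 45.7% of those up and 52.7% of those down within 1000 bp, and to 28.3%, 24.5% and 27.9% for peaks at p of at most 0.001. They were 75.3%, 70.6% and 71.1% with the summit inside the window. The letters A, B and C did not pair the libraries (correlations of deviations -0.0598, -0.0586 and -0.0306), and a replicate block called 1096 up, 1092 of them shared, and 910 down, 906 shared. Among named genes calls were lost for TWIST1 (-0.53 without WT library B), MT-ND6 (0.54 without WT library B), GIMAP4 (adjusted p = 0.0725 in limma on log2 counts), and in 1 to 6 alternatives for JUP, DLL4, HOXA6, PCDHGA9, EFNA5, EPHB6 and ABCC3, and SYNE1 was called at -0.59 without WT library A.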
